A study of Rattus norvegicus with 8 samples.

Results

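Enzymes that make prostaglandins, thromboxane and leukotrienes were examined in the outflow veins of arteriovenous fistulas (AVF) in rats. The rule named 10 genes (Ptgs1, Ptgs2, Ptges, Ptgis, Tbxas1, Hpgds, Alox5, Alox5ap, Alox15 and Ltc4s). Of these, 9 were matched by gene name among the 32623 genes with counts, and Ptgis, prostacyclin synthase, was not analysed here. For the comparison the genes were split into 3 matched vessel-wall enzymes (Ptgs1, Ptgs2, Ptges) and 6 myeloid enzymes (Tbxas1, Hpgds, Alox5, Alox5ap, Alox15, Ltc4s). The split follows where each enzyme is best known. None of the genes is exclusive to its class, since macrophages also express both cyclooxygenases and Ptges.

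In each of 8 Sprague Dawley rats the epigastric vein was joined to the femoral artery, and a nanofiber scaffold was wrapped around the vein close to the anastomosis. The BAPN group (4 rats, 3 females and 1 male) received a scaffold loaded with β-aminopropionitrile, an inhibitor of lysyl oxidases, enzymes that crosslink elastin and collagen fibers. The Vehicle group (4 rats, 2 females and 2 males) received the same scaffold without the drug, so both groups carried a fistula and a foreign material. Veins were harvested at 21 days. Ages, genotypes and batches were not given in the sources used here. RNA came from whole vein segments, so fewer cells of a type and less RNA per cell cannot be told apart.

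Eicosanoids are signaling lipids made from arachidonic acid, which phospholipases release from membranes. The cyclooxygenases Ptgs1 (constitutive in most tissues) and Ptgs2 (inducible) make the prostaglandin H that terminal synthases turn into single products. In vessels, prostacyclin from the wall relaxes smooth muscle and restrains platelets, whereas thromboxane from platelets and macrophages contracts smooth muscle and activates platelets. Leukotrienes arise in myeloid cells, where 5-lipoxygenase (Alox5) takes arachidonate from its membrane partner Alox5ap, and they recruit leukocytes and make venules leak.

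The total count per library was between 45039451 and 52241007 in the BAPN group and between 19548203 and 22442050 in the Vehicle group. Depth therefore separated the groups completely, and anything in how the libraries were made that followed it cannot be told apart from the treatment. With all libraries thinned to equal totals, edgeR called 1767 genes (1957 without thinning) and 0 members. Levels are given as CPM, counts scaled by the effective (TMM) library size to a common total. CPM is not corrected for gene length, so a difference in CPM between genes is not a difference in abundance. Smooth muscle markers (10 of 10) and endothelial markers (9 of 9 matched) passed the filter on low counts, as the tissue label implies. edgeR's quasi-likelihood test compared the groups over 11682 genes with a base mean, the average normalized count, of at least 100. FDR is the Benjamini-Hochberg adjusted p over these genes. Log2 fold changes (BAPN minus Vehicle) are those of edgeR, and each SE and 95% interval comes from limma-voom, whose estimate can differ from that of edgeR.

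No member was called at an FDR below 0.05 by edgeR (0 of 7 tested), against 16.8% of all tested genes. At an unadjusted p below 0.05, edgeR selected 1 member, Alox5ap, where 35.8% of all tested genes were selected. DESeq2 called 0 of the 7 members and 27.4% of all tested genes. The BAPN and Vehicle groups overlapped for every member, whereas they did not overlap for 24.7% of all tested genes. All 3 vessel-wall enzymes had log2 fold changes below 0 (median -0.54), and 3 of the 4 tested myeloid enzymes had log2 fold changes above 0 (median 0.35). The median over all tested genes was 0.02. The remaining myeloid members, Ltc4s and Hpgds, had base means of 86.0 and 48.3 and were below the filter. Without a filter, edgeR gave them log2 fold changes of -0.75 and -1.04. The myeloid members as a class therefore went in both directions.

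**Figure D1:**
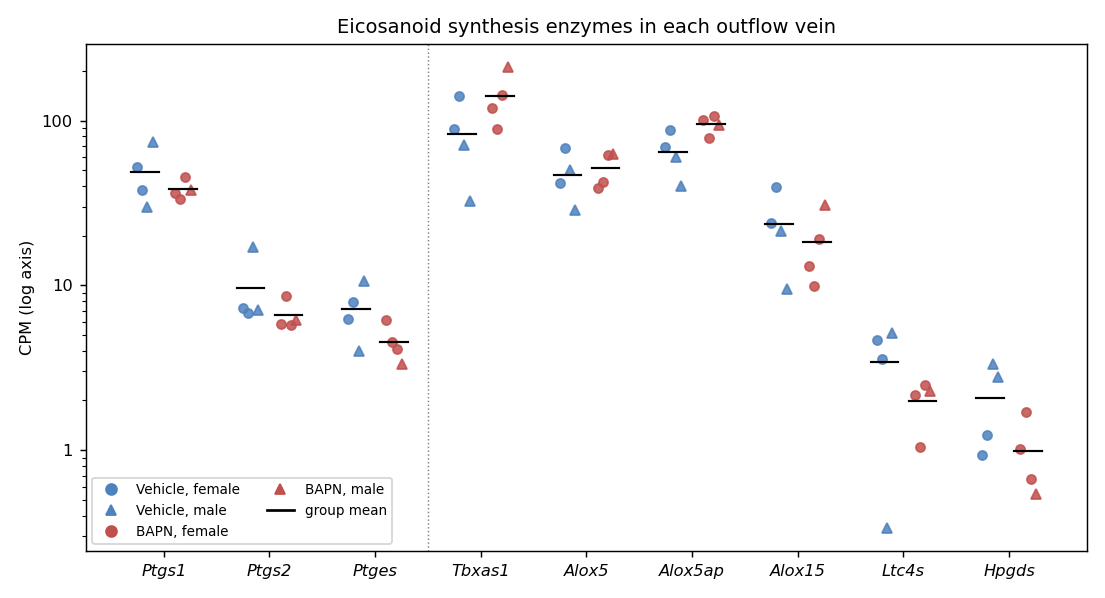
CPM of each matched enzyme (vertical log axis) in each rat, with Vehicle in blue, BAPN in red, circles for females, triangles for males and a black bar for the group mean. The dotted line parts the vessel-wall enzymes on the left from the myeloid enzymes on the right, and for each gene the BAPN and Vehicle points overlap, as for Alox5ap (78.5 to 107 CPM with BAPN against 40.1 to 87.4 CPM with vehicle).

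Ptgs1 encodes cyclooxygenase-1, the form present in resting endothelium, platelets and macrophages. It was at 36.5, 33.3, 45.7 and 37.8 CPM in BAPN 1 to 4, and at 52.5, 37.7, 29.8 and 74.2 CPM in Vehicle 1 to 4. The BAPN rats lay close together, and both the lowest and the highest rat belonged to the Vehicle group. Group means were 38.3 ± 5.24 CPM in BAPN-treated veins and 48.6 ± 19.5 CPM in vehicle-treated veins (mean ± SD, n = 4 rats each). The change amounted to -0.34 on the log2 scale (SE 0.25, edgeR FDR 0.359), with a 95% interval from -0.81 to 0.30. Without Vehicle 4 the log2 fold change was -0.06.

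Ptgs2 encodes cyclooxygenase-2, which inflammatory signals and shear stress induce. It was at 5.85, 8.62, 5.74 and 6.14 CPM in BAPN 1 to 4, and at 7.30, 6.82, 17.2 and 7.07 CPM in Vehicle 1 to 4. Vehicle 3, a male, stood above the other rats, and the other 7 libraries lay between 5.74 and 8.62 CPM. The change amounted to -0.54 on the log2 scale (SE 0.31, edgeR FDR 0.262, 95% interval -1.15 to 0.22), and it was -0.10 without Vehicle 3. The ratio of Ptgs2 to Ptgs1 CPM was 0.575 in Vehicle 3 and between 0.0952 and 0.259 in the other rats.

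The RefSeq promoter windows of both cyclooxygenase genes are shown because their expression was read side by side here. Each line holds the 250 bases before the annotated start, 5′ to 3′ on the gene's strand, in the GRCr8 assembly. Capitals mark matches on either strand to a GC box (GGGCGG), an E-box (CACGTG) or an ETS-type motif (GAGGAAG).
Ptgs1, chr3:39981169-39981418, plus strand: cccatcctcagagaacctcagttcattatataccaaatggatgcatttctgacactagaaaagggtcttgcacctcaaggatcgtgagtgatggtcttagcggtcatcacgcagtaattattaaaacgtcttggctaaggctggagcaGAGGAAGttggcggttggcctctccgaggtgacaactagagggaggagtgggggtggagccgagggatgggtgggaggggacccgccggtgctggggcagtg
Ptgs2, chr13:64713813-64714062, plus strand: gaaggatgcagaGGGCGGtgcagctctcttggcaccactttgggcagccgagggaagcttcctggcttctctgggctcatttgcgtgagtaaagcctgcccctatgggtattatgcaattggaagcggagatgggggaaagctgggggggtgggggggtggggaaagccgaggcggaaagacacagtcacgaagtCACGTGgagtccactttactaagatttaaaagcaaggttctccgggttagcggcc
The ETS-type motif of Ptgs1 begins 102 bases before the start, and 10.2% of 33469 rat windows of this length hold that motif. In Ptgs2 the E-box begins 55 bases before the start and the GC box 238 bases before it, and these motifs are found in 5.59% and 30.5% of windows. Neither window holds the TATA box letters TATAAA (12.9% of windows), the AP-1 letters TGANTCA (6.34%) or the CRE letters TGACGTCA (1.59%). A match describes the letters of the window and was not tested as a binding site. The motifs were chosen after these windows had been read.

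Ptges, the inducible synthase of prostaglandin E, was at 6.12, 4.52, 4.08 and 3.32 CPM in BAPN 1 to 4 and at 6.27, 7.96, 4.00 and 10.7 CPM in Vehicle 1 to 4. Vehicle 3 lay below 3 of the BAPN rats, and the other Vehicle rats lay above all of them. Means were 4.51 ± 1.18 CPM in BAPN-treated veins and 7.22 ± 2.81 CPM in vehicle-treated veins (mean ± SD, n = 4 rats each). The change amounted to -0.68 on the log2 scale (SE 0.32, edgeR FDR 0.167, 95% interval -1.33 to 0.12). Across the fits that left out 1 rat, its log2 fold change ranged from -0.88 without Vehicle 3 to -0.43 without Vehicle 4.

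Of 10 smooth muscle markers 7 fell, and of 9 endothelial markers 4 fell, where 9.25% of all tested genes were called lower. Of 9 fibroblast markers 1 fell (median log2 fold change -0.30). Acta2, Tagln and Myocd were the smooth muscle markers that did not pass the test. The summed level of the smooth muscle markers was 1785 to 4539 CPM in BAPN-treated veins and 3652 to 6561 CPM in vehicle-treated veins, and that of the endothelial markers was 532 to 720 CPM and 921 to 1660 CPM. Their part in the values of Ptgs1, Ptgs2 and Ptges was not tested.

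Tbxas1, thromboxane synthase, acts on the product of the cyclooxygenases and is abundant in macrophages and platelets. It was at 120, 89.2, 143 and 211 CPM in BAPN 1 to 4, and at 88.5, 140, 71.4 and 32.4 CPM in Vehicle 1 to 4. The highest level was in the BAPN male and the lowest levels were in the Vehicle males, while the females of both groups overlapped. Means were 141 ± 51.8 CPM in BAPN-treated veins and 83.1 ± 44.7 CPM in vehicle-treated veins (mean ± SD, n = 4 rats each). On the log2 scale the change was 0.76 (SE 0.43, edgeR FDR 0.204, 95% interval -0.08 to 1.84). Among females alone it was 0.04 (FDR 0.938), and it was 0.49 without Vehicle 4 and 0.50 without BAPN 4.

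An interaction of treatment with sex was fitted after the male values of Tbxas1 and Alox15 had been seen to stand apart, and it rests on 1 BAPN male, so it is no independent test of them. edgeR called 0 of 11682 genes for it (1442 at an unadjusted p below 0.05), with an FDR of 0.269 for Tbxas1 and 0.282 for Alox15. No other tool was run for it.

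Alox5, 5-lipoxygenase, was at 39.2, 42.4, 61.7 and 62.5 CPM in BAPN 1 to 4 and at 41.6, 67.7, 50.1 and 28.5 CPM in Vehicle 1 to 4. The groups covered nearly the same range, apart from the low level in Vehicle 4. On the log2 scale it changed by 0.13 (SE 0.26, edgeR FDR 0.740, 95% interval -0.42 to 0.75). It was -0.05 without Vehicle 4 and -0.20 among females alone, so that no direction could be given.

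Alox5ap, the 5-lipoxygenase activating protein, was at 101, 78.5, 107 and 93.3 CPM in BAPN 1 to 4 and at 68.9, 87.4, 60.2 and 40.1 CPM in Vehicle 1 to 4. BAPN 2 lay below Vehicle 2, and each other BAPN rat lay above all Vehicle rats. Means were 94.97 ± 12.3 CPM in BAPN-treated veins and 64.1 ± 19.6 CPM in vehicle-treated veins (mean ± SD, n = 4 rats each), or 1.48 times as high with BAPN. On the log2 scale the change was 0.57 (SE 0.22, edgeR FDR 0.0922 and 0.0616 in DESeq2), with a 95% interval from 0.12 to 1.11 that is not adjusted for the number of genes. Among females alone it was 0.29 (FDR 0.362). The exact two-sided permutation test over 70 arrangements gave p = 0.0571. edgeR called Alox5ap without Vehicle 2 (log2 fold change 0.75, FDR 0.0330) and in none of the other 7 fits that left out 1 rat, where the FDR reached 0.201.

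The promoter windows of Alox5 and Tbxas1 are shown because these genes stand for the leukotriene and the thromboxane arm in myeloid cells. The layout is as above, and capitals also mark the TATA box and AP-1 letters.
Alox5, chr4:151251127-151251376, minus strand: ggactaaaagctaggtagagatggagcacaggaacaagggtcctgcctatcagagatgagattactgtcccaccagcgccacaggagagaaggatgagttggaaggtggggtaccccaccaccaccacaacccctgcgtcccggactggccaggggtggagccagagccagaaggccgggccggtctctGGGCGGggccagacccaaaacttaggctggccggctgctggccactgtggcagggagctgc
Tbxas1, chr4:68631635-68631884, plus strand: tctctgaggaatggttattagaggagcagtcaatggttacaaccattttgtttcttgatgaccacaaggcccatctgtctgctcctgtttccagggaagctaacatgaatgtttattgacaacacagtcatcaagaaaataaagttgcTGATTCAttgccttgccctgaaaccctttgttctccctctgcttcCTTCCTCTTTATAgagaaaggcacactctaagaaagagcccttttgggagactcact
Alox5 has a GC box 61 bases before its start and 62.8% G and C, against a median of 51.2% over all windows. Tbxas1 has 42.8% G and C and no GC box. On its opposite strand an ETS-type motif and a TATA box lie next to each other, beginning 57 and 50 bases before the start, and an AP-1 match begins 102 bases before it. The annotated Tbxas1 gene begins 44 bases upstream of the start used for this window. RefSeq windows were found for 6 of the 9 matched members.

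Alox15, a lipoxygenase that oxygenates arachidonate to hydroxy acids in resident macrophages and eosinophils, was at 13.2, 9.90, 19.2 and 30.6 CPM in BAPN 1 to 4. In Vehicle 1 to 4 it was at 23.9, 39.4, 21.3 and 9.51 CPM. The females and the males pointed in opposite directions. The BAPN females lay below both Vehicle females, and the BAPN male lay above both Vehicle males. On the log2 scale the change was -0.37 (SE 0.45, edgeR FDR 0.572, 95% interval -1.34 to 0.68). It was -1.17 among females alone (FDR 0.110) and 0.00 without Vehicle 2. The lipoxygenase Alox12, a close relative, was at 9.96, 14.8, 25.8 and 33.5 CPM in BAPN 1 to 4. In Vehicle 1 to 4 Alox12 was at 19.7, 31.6, 13.6 and 7.74 CPM. Whether reads were split between these related genes was not tested.

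Ltc4s joins glutathione to leukotriene A and so makes the first cysteinyl leukotriene. It was at 2.16, 1.05, 2.47 and 2.30 CPM in BAPN 1 to 4 and at 4.63, 3.56, 0.337 and 5.16 CPM in Vehicle 1 to 4. Vehicle 3 had 8 reads, against 72 to 108 in the other Vehicle libraries, and those other Vehicle rats lay above all BAPN rats. Without a filter on low counts the log2 fold change was -0.75 in edgeR (FDR 0.468), where 7.54% of 20421 genes were called. limma-voom gave -0.23 (SE 0.75, 95% interval -1.91 to 1.45). With 1 rat left out, edgeR gave from -1.14 without Vehicle 3 (FDR 0.10) to -0.48 without Vehicle 4 (FDR 0.690).

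Hpgds, the hematopoietic synthase of prostaglandin D found in mast cells and macrophages, was at 1.02, 1.70, 0.669 and 0.543 CPM in BAPN 1 to 4. In Vehicle 1 to 4 it was at 0.936, 1.24, 3.33 and 2.77 CPM, and between 20 and 86 reads per library stood behind these values. Both Vehicle males were above all other rats, whereas the females of the groups overlapped. Without a filter the change was -1.04 on the log2 scale (SE 0.54, edgeR FDR 0.267, 95% interval -2.21 to 0.21), and among females alone it was 0.08 (FDR 0.960).

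**Figure D2:**
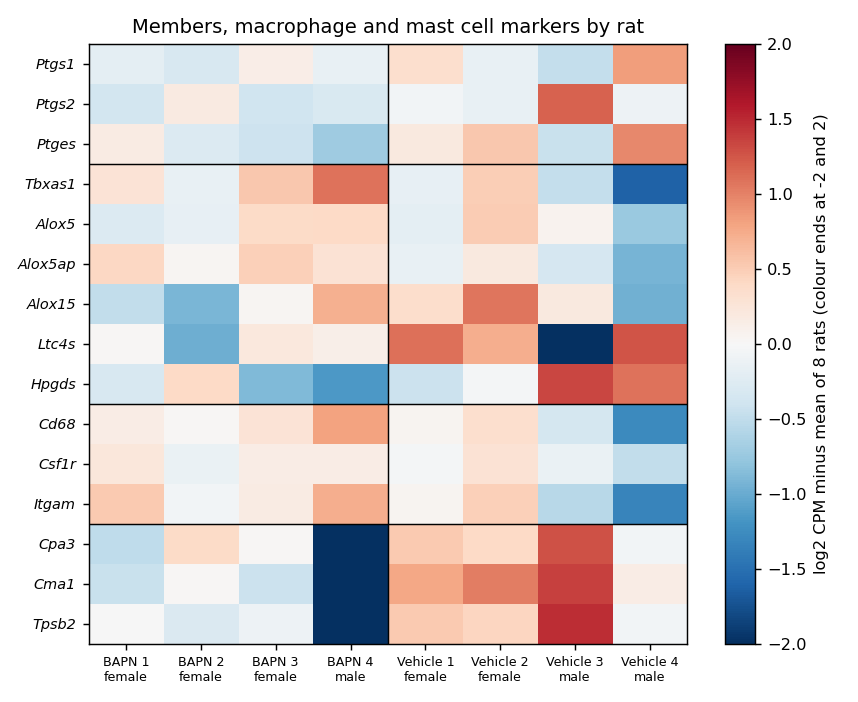
Log2 CPM of each gene minus its mean over the 8 rats (colour, red above and blue below, ending at -2 and 2), with rats in columns and blocks of vessel-wall enzymes, myeloid enzymes, 3 macrophage markers and 3 mast cell markers from top to bottom. Vehicle 4 is below the mean for Tbxas1, Alox5, Alox5ap, Alox15 and the macrophage markers drawn, and above it for Ltc4s and Hpgds, whereas 4 of the 12 tested macrophage markers, not drawn, are above their mean in that rat. Of the 10 mast cell markers, 8 are highest in Vehicle 3 and 7 are lowest in BAPN 4. Kit, which is not drawn, is highest in BAPN 4.

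Vehicle 4 had the lowest level of the 4 tested myeloid enzymes, Tbxas1, Alox5, Alox5ap and Alox15, but the highest of Ltc4s and the second highest of Hpgds. Of 12 tested macrophage markers, 7 were lowest in that rat, such as Cd68 (376 CPM against 710 to 1596 CPM in the other rats). However, 4 of the 12 (Cd163, Adgre1, Mrc1 and C1qa) were above their 8-rat mean there. Of 12 tested macrophage markers 1 rose, where 7.5% of all tested genes were called higher, and the median log2 fold change of the 12 was 0.54. The summed level of the list was 29028 to 42275 CPM in BAPN-treated veins and 6321 to 23715 CPM in vehicle-treated veins, most of it from Lyz2, and Marco had no reads in any library. Their part in the values of the myeloid enzymes was not tested.

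Of 8 platelet and megakaryocyte markers 3 were tested and 1, Itga2b, fell (log2 fold change -1.22, edgeR FDR 0.0401, background 9.25% lower). The summed level of all 8 was 69.8 to 129 CPM with BAPN and 45.4 to 93.0 CPM with vehicle. Pf4 was the largest part of that sum in each rat. Gp1bb had no reads, Ppbp was at most 0.197 CPM and Gp9 at most 0.702 CPM, while Pf4, which macrophages can also express, was at 36.6 to 119 CPM. Of 3 genes tested from the neutrophil list, Fcgr3a rose (FDR 0.0362 in edgeR, background 7.5% higher), a receptor that macrophages and natural killer cells also express, while S100a9 and Csf3r had FDRs of 0.791 and 0.637. Of the 2 tested eosinophil markers, one of them Alox15 itself, edgeR and DESeq2 called 0, and 0 had an unadjusted p below 0.05. Among mast cell markers, Cpa3 was at 11.03 CPM in Vehicle 3 and 1.06 CPM in BAPN 4, the rats with the highest and the lowest Hpgds level. Of the 10 markers of this list 8 were highest in Vehicle 3 and 7 were lowest in BAPN 4, while Kit was highest in BAPN 4 (53.2 CPM). None of the 4 tested mast cell markers was called by edgeR, 2 had an unadjusted p below 0.05 (35.8% of all tested genes), and DESeq2 called 2 (27.4% of all tested genes). The summed level of all 10 was 39.3 to 60.8 CPM in BAPN-treated veins and 55.2 to 88.8 CPM in vehicle-treated veins, with Kit its largest part in each rat, and Mcpt1 was at most 0.210 CPM. Their part in the Hpgds and Ltc4s values was not tested.

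The enzymes were also set against 2 macrophage genes within each rat, which removes the effect of library scaling. The ratio of Alox5ap to Csf1r, the receptor for macrophage colony-stimulating factor, was 0.118, 0.117, 0.131 and 0.114 in the 4 BAPN rats in turn and 0.0959, 0.0972, 0.0897 and 0.0761 in Vehicle 1 to 4. For this ratio the BAPN rats all exceeded the Vehicle rats, as did 2.51% of the other tested genes relative to Csf1r (10.9% separated the groups in either direction). Relative to Cd68, where 13% of the other tested genes separated the groups, Alox5ap overlapped (0.0585 to 0.101 with BAPN and 0.0732 to 0.107 with vehicle). The groups also overlapped for Tbxas1 and Alox5 relative to either gene. These ratios were chosen after the values had been seen.

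Both classes were averaged in each rat as the mean log2 deviation from the 8-rat mean. For the 3 vessel-wall enzymes the deviations were -0.13, -0.14, -0.23 and -0.38 in the BAPN rats and 0.16, 0.08, 0.08 and 0.56 in Vehicle 1 to 4. For the 4 tested myeloid enzymes they were -0.02, -0.30, 0.36 and 0.62 in the BAPN rats and -0.04, 0.57, -0.14 and -1.06 in Vehicle 1 to 4. The vessel-wall averages lay on opposite sides of the mean in the BAPN and Vehicle groups, but this rested on Ptgs2 in Vehicle 3, which deviated by 1.18 where Ptgs1 and Ptges deviated by -0.48 and -0.45. Without Ptgs2 the averages overlapped (-0.43 to -0.02 in the BAPN rats and -0.46 to 0.89 in the Vehicle rats). The myeloid averages overlapped, and the rat with the lowest myeloid average, Vehicle 4, had the highest vessel-wall average. The class averages are descriptions and carry no test.

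**Figure D3:**
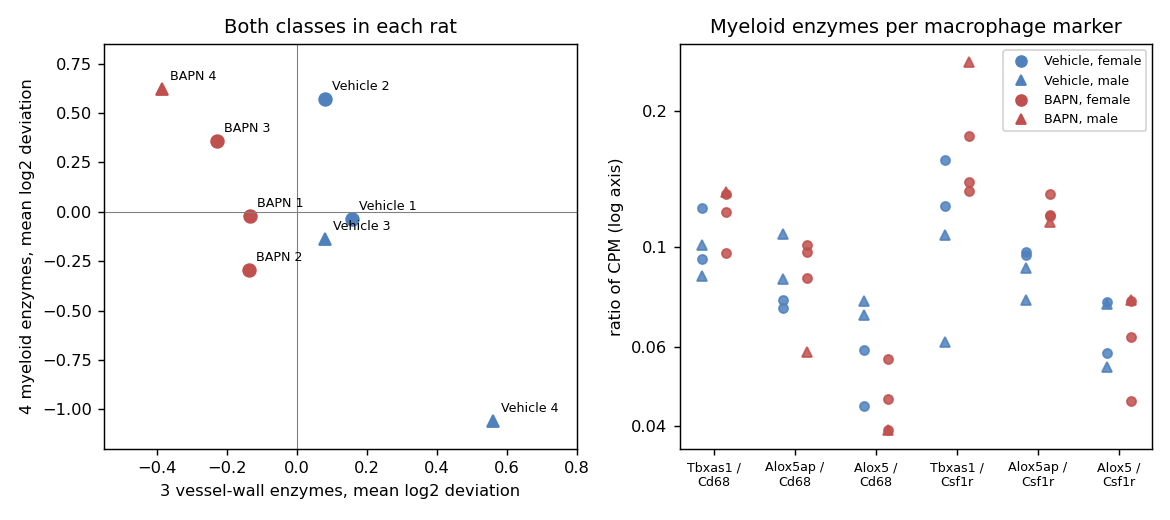
Left, the mean log2 deviation of the 3 vessel-wall enzymes (horizontal) and of the 4 tested myeloid enzymes (vertical) in each rat, with BAPN in red, Vehicle in blue, circles for females and triangles for males. Right, the CPM ratio of Tbxas1, Alox5ap and Alox5 to Cd68 or Csf1r in each rat (vertical log axis), where Alox5ap to Csf1r is 0.114 to 0.131 with BAPN and 0.0761 to 0.0972 with vehicle.

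Further genes of the pathway were taken from 5 lists covering arachidonate release, other synthesis enzymes, prostanoid receptors, leukotriene and lipoxin receptors, and transport and inactivation. Of 48 genes named, 46 were matched and 27 were tested. edgeR called 3 higher and 0 lower with BAPN, where 7.5% and 9.25% of all tested genes were called. All 3 were higher in every BAPN rat than in every Vehicle rat, as 12.7% of all tested genes were.

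Ptger2, a receptor for prostaglandin E that raises cyclic AMP, was at 20.5, 22.6, 21.5 and 24.0 CPM in BAPN 1 to 4 and at 12.8, 17.7, 11.3 and 6.83 CPM in Vehicle 1 to 4. It rose by 0.86 on the log2 scale (SE 0.22, edgeR FDR 0.0436). Ptges3, a cytosolic prostaglandin E synthase that also serves as a co-chaperone, rose from 120 ± 8.05 to 157 ± 9.05 CPM (mean ± SD, n = 4 rats each). On the log2 scale it changed by 0.39 (SE 0.10, edgeR FDR 0.0316). Mgst2, a membrane enzyme that can conjugate glutathione to leukotriene A, rose from 10.4 ± 0.648 to 16.3 ± 4.15 CPM (mean ± SD, n = 4 rats each), which is 0.65 on the log2 scale (SE 0.23, FDR 0.0451 in edgeR). These edgeR calls were close to the threshold. DESeq2, which called 27.4% of all tested genes, also called all 3 (FDR 0.00095 for Ptges3, 0.0092 for Ptger2 and 0.0136 for Mgst2). Of the 8 fits that left out 1 rat, Ptges3 kept its call in 2 (without BAPN 1 or Vehicle 2), Ptger2 in 1 (without Vehicle 2) and Mgst2 in 1 (without BAPN 2). The largest FDRs, each without Vehicle 1, were 0.0858, 0.0969 and 0.108. Across these fits the log2 fold change was 0.36 to 0.44 for Ptges3, 0.67 to 1.10 for Ptger2 and 0.47 to 0.74 for Mgst2. With sex in the model none of the 3 passed (FDR 0.0682 for Ptges3, 0.0683 for Ptger2 and 0.0551 for Mgst2), nor did any with total counts only (FDR 0.0675, 0.0694 and 0.0595) or among females alone (0.194, 0.191 and 0.228). With sex in the model the log2 fold changes were 0.37 for Ptges3, 0.83 for Ptger2 and 0.69 for Mgst2, and among females alone they were 0.34, 0.50 and 0.45. All 3 were called with libraries thinned to equal totals (FDR 0.0420, 0.0464 and 0.0419). Mgst2 was not called without a filter on low counts (FDR 0.057). Among markers of other cells, Cd2 and Cd8a rose of 7 tested T cell markers, and Cd79b and Mzb1 of 3 tested B cell and plasma cell markers (background 7.5% higher). The B cell and plasma cell list did not separate the groups, since its summed level was 156 to 224 CPM in BAPN 1 to 3 but 7.26 CPM in BAPN 4, under all Vehicle rats (12.2 to 38.9 CPM). Of 5 tested adipocyte markers Plin1 fell (background 9.25% lower), but all 5 overlapped between the groups. Of these 5, 4 had log2 fold changes below 0 (median of the 5, -1.61), and DESeq2 called 4 lower. Plin1 was at 27.5 to 61.3 CPM in Vehicle 1 to 3 and 4.54 CPM in Vehicle 4, against 4.91 to 10.9 CPM with BAPN. Fabp4, the only one above 0, had a log2 fold change of 0.70 (FDR 0.269 in edgeR). Their part in the values of the pathway genes was not tested.

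Among the 5 tested prostanoid receptors the values went in both directions. Beside Ptger2, the prostacyclin receptor Ptgir was at 21.5 ± 2.08 CPM in BAPN-treated veins and 26.7 ± 1.06 CPM in vehicle-treated veins (mean ± SD, n = 4 rats each), which is -0.32 on the log2 scale (SE 0.11). The thromboxane receptor Tbxa2r was at 2.49 ± 0.734 and 4.43 ± 1.13 CPM, which is -0.83 on the log2 scale (SE 0.31). For both genes the BAPN rats all lay under the Vehicle rats, as for 11.9% of all tested genes. Neither was called by edgeR (FDR 0.0761 for Ptgir and 0.0891 for Tbxa2r), whereas DESeq2 called both (FDR 0.0279 and 0.0349). Ptgir and Tbxa2r were named after their values were seen.

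In each list without a call, the tested gene with the highest mean CPM was named, a rule that takes no account of gene length. Pla2g2d, a secreted phospholipase of lymphoid tissue macrophages and dendritic cells, was at 258 ± 115 CPM in BAPN-treated veins and 179 ± 56.9 CPM in vehicle-treated veins (mean ± SD, n = 4 rats each), with an FDR of 0.240 in edgeR. Cysltr1, a receptor for cysteinyl leukotrienes, was at 11.9 ± 4.18 and 16.9 ± 3.88 CPM (log2 fold change -0.50, FDR 0.214 in edgeR), and it was the only tested gene of its list. The prostaglandin transporter Slco2a1 was at 27.3 ± 11.5 and 50.9 ± 27.1 CPM (log2 fold change -0.90, SE 0.35, FDR 0.118 in edgeR). Of the 6 tested arachidonate release genes 4 had log2 fold changes above 0 (median 0.14). Of the other synthesis enzymes, all 7 tested had log2 fold changes above 0 (median 0.39), and of the 8 transport and inactivation genes 6 had log2 fold changes below 0 (median -0.20).

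**Figure D4:**
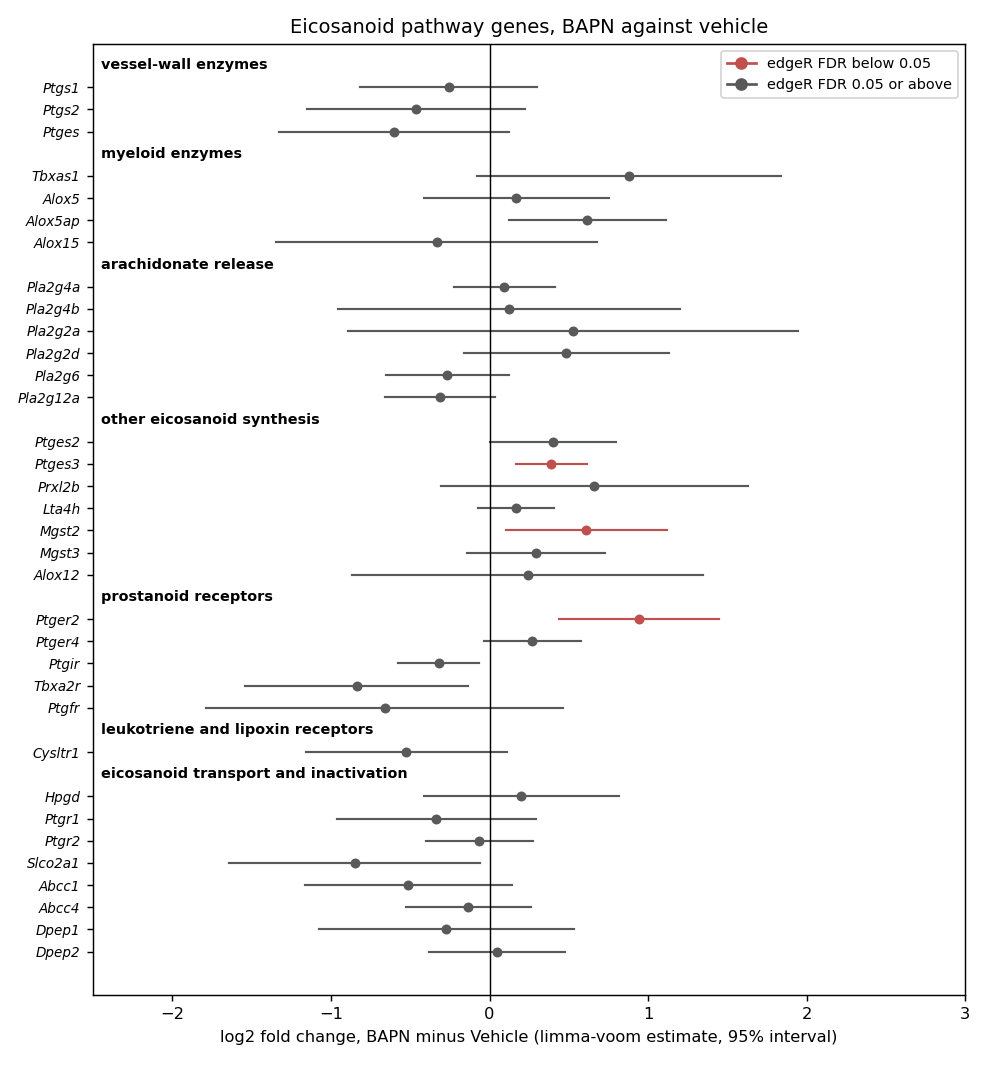
Log2 fold change of BAPN minus Vehicle (horizontal axis, limma-voom estimate with its unadjusted 95% interval) for the 7 tested members and 27 tested pathway genes, grouped by role. Red marks the 3 genes called by edgeR, Ptges3, Mgst2 and Ptger2, and the intervals of the 3 vessel-wall enzymes include 0.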

How the data were processed

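RNA from outflow veins of 8 rats was sequenced by the authors after ribosomal RNA depletion with a stranded kit. The deposited files hold, for each rat, the authors' raw counts of reads per Ensembl gene. The submitters' processing notes name bcl2fastq 2.17, Trim Galore and STAR. The counting tool, strand setting and genome build are not given in the sources used here. Groups, replicate numbers and sex came from the labels.

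Following the filter of the study, the tests took genes whose base mean (DESeq2 size factors) reached 100. No covariate was used. Tests used edgeR 4.0.16 (TMM) in R 4.3.3, with DESeq2 1.42.0 as an alternative and limma 3.58.1 (voom) for standard errors and intervals. log2 CPM used a prior count of 2. Each labelled sample was counted as 1 replicate. A chi-square comparison of libraries within groups, made only to look for duplicated libraries, found none (68.6 to 321 per degree of freedom). The steps were tested on simulated data. Alternatives changed the scaling or the filter, added sex or the replicate number to the model, used females alone, thinned libraries to equal totals, or left out each rat in turn. All members were named, with called genes of the pathway lists or, in lists without a call, the tested gene with the highest mean CPM. The members and lists were chosen with earlier results of these data known, and the interaction with sex, the within-rat ratios, the vessel-wall average without Ptgs2, the marker counts by rat and the promoter motifs were added after the values or sequences had been seen. Promoters are from RefSeq (GRCr8), which may differ from the build of the files.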

Additional observations from a re-analysis of the deposited data

Results flagged for a closer look

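Within groups of 4 rats, the gap between an extreme rat and its nearest neighbor was compared with the range of the group, on the log2 CPM scale (Dixon's criterion). The genes were the 9 matched members and the called pathway genes Ptges3, Mgst2 and Ptger2, each in the BAPN and the Vehicle group. Of 24 groups tested, 4 exceeded it, and chance gives about 1 in 20. All 4 were of Ptgs2 and Ltc4s in the same pair of rats, and in each rat one gene was high and the other low. Vehicle 3 had 17.2 CPM of Ptgs2 against 6.82 to 7.30 CPM in the other Vehicle rats, and 0.337 CPM of Ltc4s against 3.56 to 5.16 CPM. BAPN 2 had 8.62 CPM of Ptgs2 against 5.74 to 6.14 CPM in the other BAPN rats, and 1.05 CPM of Ltc4s against 2.16 to 2.47 CPM. The cause was not tested.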

How the results depend on the processing

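Over all tested genes, edgeR called 1957, and the count was 3202 with DESeq2, 930 with sex as a covariate, 87 among females alone, and 388 (without Vehicle 1) to 2225 (without Vehicle 2) with 1 rat left out. With total counts only, 30.3% of calls were higher with BAPN, against 44.8% with TMM. The number of members called was 0 with every alternative that kept all rats and among females alone, and it was 0 to 1 with 1 rat left out. Directions turned for Hpgds among females alone (0.0761), for Alox5 among females alone (-0.20) and without Vehicle 4 (-0.047), and for Alox15 without Vehicle 2 (0.0013). With 1 rat left out, the log2 fold change ranged from -0.047 to 0.362 for Alox5 and from -0.738 to 0.0013 for Alox15. The cause was not tested. The replicate number was used as a block in 1 fit, which called 556 genes, 0 of the members and none of Ptges3, Ptger2 and Mgst2 (FDR 0.0869, 0.0812 and 0.111). Their log2 fold changes in that fit were 0.39, 0.93 and 0.62. Deviations of same-numbered rats correlated at 0.094, -0.265, 0.269 and -0.140. These few values, of both signs and without a reference, cannot decide whether the numbers pair the rats. Few reads limit Hpgds and Ltc4s (as few as 20 and 8). The library with 8 reads of Ltc4s was Vehicle 3, the deepest of the Vehicle group, and the cause of that low count was not tested.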

Other observations

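Of the matched pathway genes, 19 were below the filter on low counts and were not tested. They include the leukotriene B receptor gene Ltb4r, at 0.507 to 2.07 CPM with BAPN and 1.88 to 4.63 CPM with vehicle, and the prostaglandin E receptor gene Ptger3, at 0.484 to 4.24 CPM and 1.72 to 5.43 CPM. The gene of gamma-glutamyltransferase, Ggt1, which processes leukotriene C, had the higher mean with BAPN, at 0.772 to 2.56 CPM with BAPN and 0 to 0.791 CPM with vehicle. For all 3 genes the groups overlapped, and without a filter edgeR gave an FDR of 0.111 for Ltb4r, 0.394 for Ptger3 and 0.134 for Ggt1. Among the tested genes, the secreted phospholipase gene Pla2g2a reached 76.0 CPM in BAPN 1, against 10.4 to 20.6 CPM in the remaining 7 rats (edgeR FDR 0.247). These genes were chosen after their values were seen.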
